A study of Homo sapiens with 6 samples.

Results

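The genes described here are effectors at the end of the interferon (IFN) pathway: IFI6, IFI27, IFI35, IFI44, IFI44L, SAMD9, SAMD9L, EPSTI1, LGALS3BP and RTP4. These 10 IFN-stimulated genes (ISGs) were taken by symbol from a raw count table of 37887 rows, and 10 of 10 were found and passed the filter on low counts that left 15450 genes for testing. RNA-seq was performed on 6 libraries of BT-549, a mesenchymal triple-negative breast cancer (TNBC) cell line, in order to ask which genes depend on PBRM1, the bromodomain subunit that defines the PBAF chromatin remodeling complex. The 3 shCTL libraries are titled as control shRNA and came from cells given 0.1% DMSO as vehicle. The 3 shPBRM1 libraries came from cells carrying a tetracycline-inducible PBRM1 shRNA and given 500 ng/ml doxycycline (DOX), for a time that is not given in the sources used here. The design notes describe all 6 as cells with the inducible PBRM1 hairpin, whereas the titles of the first 3 name a control shRNA, and no library of DOX-treated cells with a control hairpin was analysed here. Effects of DOX and of PBRM1 silencing therefore cannot be told apart. If the titles hold, the groups also differ in the hairpin that the cells carry. Other effects of the hairpin or of the carrying cells could then not be told apart from PBRM1 silencing either. The cells were grown in triplicate. The labels do not say whether these were separate cultures, so the p-values measure only the spread between these samples, which may be technical.

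Type I IFNs bind the IFNAR1/IFNAR2 receptor and, through the JAK1 and TYK2 kinases, lead STAT2 to join IRF9 in a complex that binds the IFN-stimulated response element (ISRE) in ISG promoters. Type II IFN acts through factors that bind the IFN-gamma-activated site (GAS). In tumor cells, chronic low-level signaling of this kind maintains a set of ISGs that includes several of the genes described here. The products differ widely. IFI6 and IFI27 are small hydrophobic membrane proteins of 1 family, IFI44 and IFI44L are cytoplasmic relatives encoded side by side, and SAMD9 and SAMD9L are large antiviral proteins, also encoded side by side, that restrain translation and cell growth. IFI35 is a leucine-zipper protein that partners NMI, EPSTI1 was named for its induction in breast epithelial cells in contact with stroma, LGALS3BP is a secreted glycoprotein that binds galectins, and RTP4 belongs to a family of transporters of membrane receptors.

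The promoter windows of the 10 genes were read from RefSeq (GRCh38.p14), from 250 bases before to 50 bases after each annotated start. The 10 genes were chosen as ISGs, so a high share of ISRE matches bears on that choice and not on their decrease. The ISRE core searched was GAAA, any 2 bases and GAAA again, on both strands. It was found for 8 of the 10 genes, as against 1195 of 27305 genes with RefSeq windows of the same length (4.38%). A gene was counted when any of its windows held a match, and IFI27 and IFI44 have 2 windows each. The stretches that hold it are printed 5′ to 3′ on the strand of the gene, with the match in capitals. All of them lie before the RefSeq start. In the longer GENCODE models, the matches of IFI27, IFI44L, LGALS3BP and RTP4 lie inside the annotated gene. IFI35, which had no match to the core, is shown with its GAS match (TTCNNNGAA, a motif that reads the same on both strands).

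IFI6 (chr1:27672261-27672363, minus strand): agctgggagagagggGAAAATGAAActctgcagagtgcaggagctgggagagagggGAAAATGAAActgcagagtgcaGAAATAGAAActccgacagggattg
IFI27 (chr14:94110613-94110665, plus strand): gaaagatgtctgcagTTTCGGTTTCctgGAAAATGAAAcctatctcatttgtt
IFI44 (chr1:78649756-78649788, plus strand): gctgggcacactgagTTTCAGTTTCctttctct
IFI44L (chr1:78620269-78620399, plus strand): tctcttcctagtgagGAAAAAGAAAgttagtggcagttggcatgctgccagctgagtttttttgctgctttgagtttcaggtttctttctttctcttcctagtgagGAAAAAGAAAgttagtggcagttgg
SAMD9 (chr7:93118091-93118130, minus strand): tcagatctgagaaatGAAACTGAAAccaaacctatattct
EPSTI1 (chr13:42992267-42992306, minus strand): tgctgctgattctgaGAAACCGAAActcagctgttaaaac
LGALS3BP (chr17:78979957-78979996, minus strand): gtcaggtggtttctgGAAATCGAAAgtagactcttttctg
RTP4 (chr3:187368328-187368384, plus strand): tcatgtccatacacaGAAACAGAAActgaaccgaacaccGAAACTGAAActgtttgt
IFI35, GAS (chr17:43006747-43006783, plus strand): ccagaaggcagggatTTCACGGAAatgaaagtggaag

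IFI6 held 3 core matches, at positions -156, -115 and -93 from the start, and IFI27, IFI44L and RTP4 held more than 1. The IFI44L matches each lie in a copy of an exact repeat of 85 bases, and those of IFI6 at -156 and -115 each lie in a copy of a repeat of 29 bases. No core match was present in the windows of SAMD9L and IFI35, which says only that these letters are absent there. The longer form, AGTTTC followed by any 2 bases and TTTC, whose reverse complement contains the core, was present in 5 of 10 (IFI6, IFI27, IFI44, EPSTI1 and RTP4) as against 0.322% of all genes with a window. The GAS letters were present in 3 of 10 (IFI27, IFI35 and EPSTI1, overlapping the ISRE core in IFI27 and EPSTI1) as against 9.38%. With 1 mismatch allowed, the core was found for 10 of 10 and for 37.7% of all genes with a window. Other genes were counted only where they have a window. Among these, the core was found for 3 of 13 on the list of relatives, partners and other IFI symbols and for 4 of 19 IFN signaling genes. It was found for 1 of 12 of the nearest tested neighbors of the 10 ISGs. A match is a description of the letters and not evidence of binding.

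**Figure D1:**
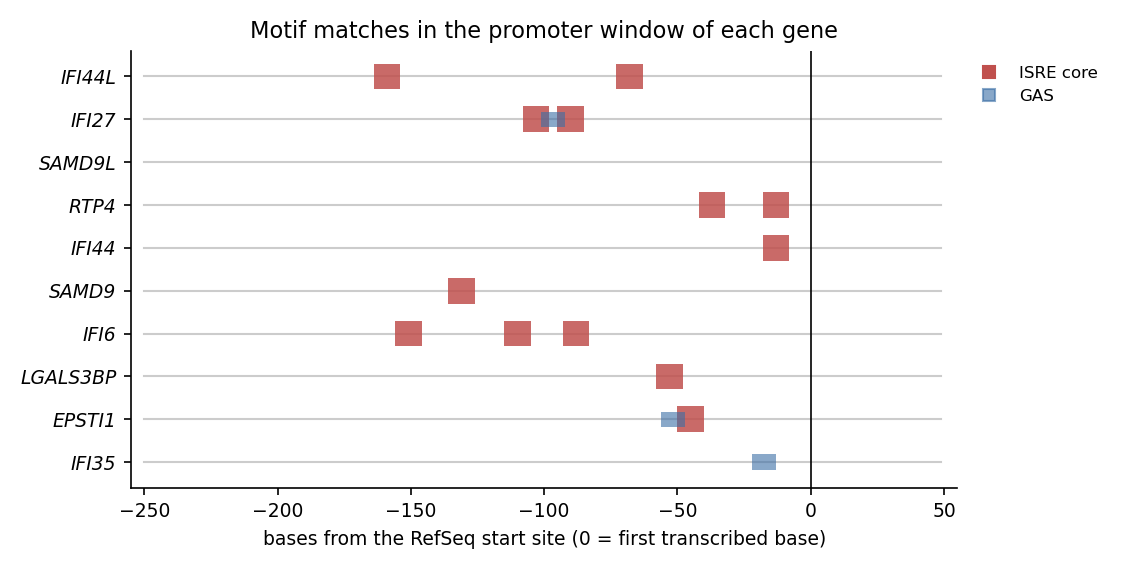
Map of the promoter windows of the 10 genes, with the distance from the RefSeq start in bases on the x axis and 1 row per gene; red marks show matches to the ISRE core and blue marks matches to the GAS letters. All ISRE core matches lie upstream of the RefSeq start, and the windows of SAMD9L and IFI35 hold none.

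Total counts ranged from 36429395 to 65096297 per library, so that 3 counts correspond to 0.0470 to 0.0803 CPM (counts scaled to a common library size). PBRM1 fell from 5870, 7619 and 8118 counts in shCTL to 2598, 1591 and 2657 in shPBRM1 libraries, with 26.5% of the CPM left (log2 fold change -1.91, SE 0.027, adjusted p = 1.00e-22, edgeR quasi-likelihood test). The mesenchymal markers VIM, CDH2, ZEB1 and FN1 were present in every library, ESR1 and PGR did not exceed 0.321 CPM, and EPCAM did not exceed 0.161 CPM. ERBB2 lay at 49.6 to 52.4 CPM. CDH1 lay at 1.21 to 5.37 CPM and was called lower in shPBRM1 (log2 fold change -1.73, adjusted p = 9.58e-10, edgeR), as was FN1 (-1.33, adjusted p = 1.05e-17). Of 10 leukocyte markers, all stayed under 1 CPM (highest 0.872, for PTPRC), and CD3E, CD3D and MS4A1 were at 0 in all 6 libraries. Their summed level was 1.63 to 1.79 CPM in shCTL and 1.22 to 1.57 CPM in shPBRM1. Within that sum PTPRC was called lower (log2 fold change -2.55, adjusted p = 6.35e-06, edgeR) and CD14 higher (1.004, adjusted p = 0.016), and the CD14 call was lost without shCTL replicate 1 or 3 or without shPBRM1 replicate 2 or 3 (log2 fold changes 0.84, 0.87, 0.95 and 0.99). The part of these markers in the results was not tested. In bulk RNA, fewer cells that express a gene and less RNA per cell cannot be told apart.

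All 10 ISGs were lower in shPBRM1 cells. Calls required a more than 2-fold difference at an edgeR adjusted p under 0.05. On that basis, 10 of 10 were called lower and 0 higher, beside 9.68% of all tested genes called lower and 2.87% called higher. Their median log2 fold change was -6.53, beside -0.0080 over all tested genes, and ranged from -9.98 for IFI44L to -3.02 for IFI35. In each of the 10, every shPBRM1 library lay below every shCTL library, as was so for 35.0% of all tested genes. Summed over the 10, the level was 1904, 1898 and 1888 CPM in the shCTL libraries and 40.1, 43.1 and 40.3 CPM in the shPBRM1 libraries. The mean sum therefore went from 0.190% to 0.00412% of the scaled library size, a 46.1-fold decrease.

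**Figure D2:**
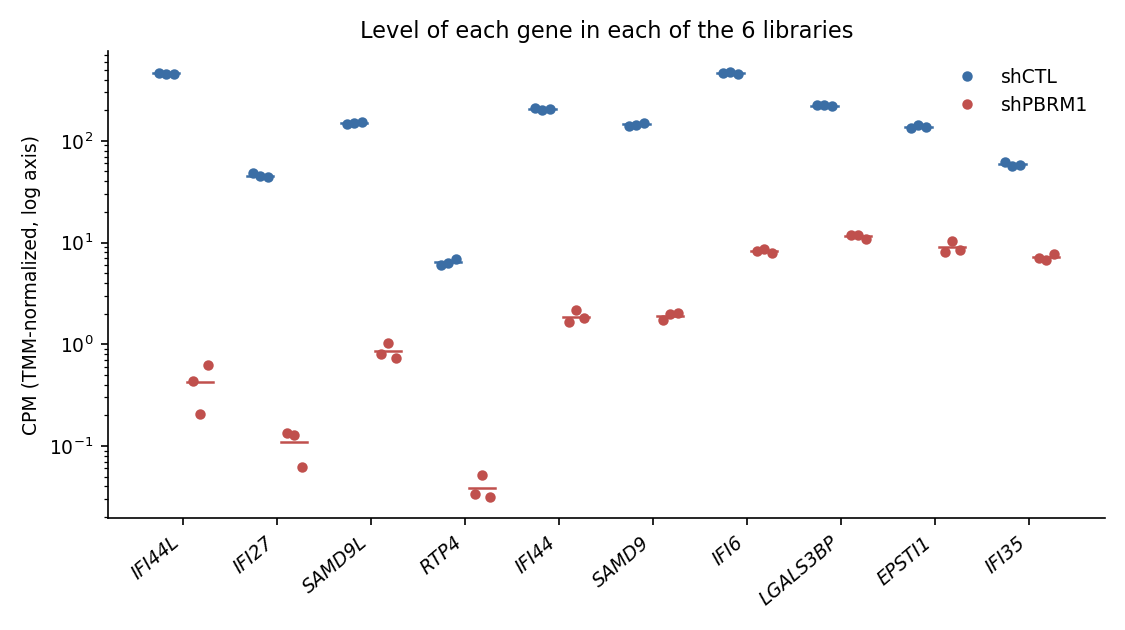
CPM of each of the 10 genes in each of the 6 libraries, on a log axis, with 1 point per library and the group means marked. For every gene the 3 shPBRM1 points lie below the 3 shCTL points.

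IFI44L had the largest decrease of the 10 although, in counts, it was among the most abundant in shCTL cells. It had 17505, 22103 and 22915 counts in shCTL and 26, 8 and 40 in shPBRM1. The shCTL libraries were close together, whereas the shPBRM1 libraries, with so few counts, differed among themselves, the second being lowest and the third highest. The level went from 459 ± 8.36 CPM to 0.422 ± 0.211 CPM (mean ± SD, n = 3 libraries). The log2 fold change was -9.98 (SE 0.42, adjusted p = 4.80e-28, edgeR). On pooled counts the decrease was 1008-fold, with a 95% counting interval of 803 to 1284, which covers counting error only. IFI44, its neighbor on chromosome 1, had 7865, 9858 and 10461 counts in shCTL and 99, 84 and 115 in shPBRM1. No shPBRM1 library stood apart from the others here. The level went from 207 ± 3.98 to 1.87 ± 0.261 CPM, a log2 fold change of -6.82 (SE 0.11, adjusted p = 6.73e-29, edgeR).

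IFI6 had the most counts of the set when the 6 libraries were pooled. However, IFI44L exceeded it in shCTL replicate 1, LGALS3BP in every shPBRM1 library and EPSTI1 in shPBRM1 replicates 2 and 3. IFI6 had 17294, 23093 and 23141 counts in shCTL and 498, 333 and 499 in shPBRM1, or 466 ± 8.37 and 8.22 ± 0.368 CPM. Both groups were tight, with a coefficient of variation of 4.48% even in shPBRM1. The log2 fold change was -5.83 (SE 0.040, adjusted p = 6.73e-29, edgeR), which left 1.77% of the level. IFI27, its relative on chromosome 14, had 1784, 2188 and 2199 counts in shCTL but 8, 5 and 4 in shPBRM1. Its remaining signal was therefore close to the 3 counts taken as the floor. The log2 fold change was -8.73 (SE 0.25, adjusted p = 2.89e-24, edgeR), and the pooled counts gave a 433-fold decrease with a counting interval of 270 to 744.

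SAMD9 and SAMD9L, the adjacent pair on chromosome 7, started from nearly equal counts. SAMD9 had 5217, 7036 and 7563 counts in shCTL and 104, 78 and 128 in shPBRM1, a log2 fold change of -6.25 (SE 0.075, adjusted p = 2.55e-28, edgeR). SAMD9L had 5521, 7249 and 7803 counts in shCTL and 48, 40 and 47 in shPBRM1, a log2 fold change of -7.50 (SE 0.14, adjusted p = 9.01e-29, edgeR). In each shCTL library SAMD9L had slightly more counts than SAMD9, and in each shPBRM1 library it had fewer. The share left was 1.32% for SAMD9 and 0.568% for SAMD9L.

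RTP4, the member with the lowest control level, had 224, 308 and 350 counts in shCTL and 2 in each shPBRM1 library. The groups were far apart although the gene reached only 6.42 ± 0.475 CPM in shCTL cells. The fitted log2 fold change was -7.35 (SE 0.13, adjusted p = 2.72e-17, edgeR). With so few counts left, the pooled ratio was 175-fold with a counting interval of 80.2 to 479.

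IFI35, EPSTI1 and LGALS3BP had the smallest decreases and kept measurable transcript. LGALS3BP had 8376, 10870 and 11022 counts in shCTL and 720, 460 and 698 in shPBRM1, a log2 fold change of -4.26 (SE 0.042, adjusted p = 8.61e-28, edgeR). EPSTI1 had 5003, 6879 and 6915 counts in shCTL and 481, 407 and 542 in shPBRM1, a log2 fold change of -3.96 (SE 0.12, adjusted p = 1.95e-24, edgeR). IFI35 had 2313, 2736 and 2891 counts in shCTL and 420, 263 and 496 in shPBRM1, a log2 fold change of -3.02 (SE 0.074, adjusted p = 3.82e-21, edgeR). Each of these 3 genes had well over 200 counts in every shPBRM1 library, so depth did not limit their values. The shares left were 5.22% for LGALS3BP, 6.54% for EPSTI1 and 12.3% for IFI35, against 1.77% or less in the other 7 members.

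Ordered by log2 fold change, the genes ran IFI44L, IFI27, SAMD9L, RTP4, IFI44, SAMD9, IFI6, LGALS3BP, EPSTI1 and IFI35. SAMD9L and RTP4 differed by 0.15, less than their combined SE of 0.19, and each other pair of neighbors in the order differed by more than 2 combined SE. The SE of RTP4, with 2 counts in each shPBRM1 library, does not reflect counting error. The counting interval of RTP4, 80.2 to 479-fold, held that of IFI44 (101 to 127). It also overlapped those of IFI27 (270 to 744) and SAMD9 (68.2 to 85.6), so RTP4 could not be ordered against these genes. The size of the decrease did not follow the control level: across the 10 genes, which are not independent replicates, the log2 fold change and the log2 CPM in shCTL had a Pearson r of -0.0081 and a Spearman rho of -0.030. The spread between libraries did differ between the groups, as did the counts, which were low in shPBRM1 for several genes (8, 5 and 4 for IFI27). Counting error is larger at low counts, and its part in the spread was not tested. The medians over all tested genes are not matched for counts. Coefficients of variation of the 10 genes were 1.43% to 7.40% in shCTL (median 2.57%) and 4.48% to 50.04% in shPBRM1 (median 14.2%), beside medians of 5.38% and 5.60% over all tested genes.

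Because the decreases were unequal, the make-up of the remaining ISG transcript changed. IFI6 and IFI44L together gave 48.7% of the summed CPM of the 10 genes in shCTL and 21.0% in shPBRM1. IFI44L alone went from 24.2% to 1.02%, whereas LGALS3BP went from 11.7% to 28.1% and IFI35 from 3.08% to 17.4%. The 4 genes with the most CPM left (IFI6, IFI35, EPSTI1 and LGALS3BP) together went from 46.6% to 87.4%.

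To compare levels between genes, CPM was divided by the union exon length in kb. In shCTL, IFI6 was highest at 538 ± 9.67 CPM per kb, a level exceeded by few of the tested genes (percentile 99.8), followed by IFI44 at 102 ± 1.95. LGALS3BP (62.0), IFI44L (44.8), IFI35 (29.7), EPSTI1 (27.9), SAMD9 (21.1), SAMD9L (21.1), IFI27 (10.96) and RTP4 (4.13 CPM per kb) came next. IFI35 could not be ordered against EPSTI1, nor SAMD9 against SAMD9L, because their libraries overlapped. In shPBRM1, IFI6 remained highest at 9.51 CPM per kb (percentile 72.6), IFI35 came next at 3.64, and IFI44L fell to 0.0412 CPM per kb (percentile 3.15). There, IFI44L, IFI27 and RTP4 could not be ordered, since IFI27 overlapped both of the others. With the length of the longest coding transcript instead, IFI27 moved from place 9 to place 5 in shCTL.

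The paralog pairs were then compared within each library, which asks whether related genes moved by the same factor. The log2 ratio of IFI44L to IFI44 was 1.15, 1.16 and 1.13 in shCTL and -1.84, -3.16 and -1.47 in shPBRM1, a difference of -3.30 (SE 0.51). The log2 ratio of SAMD9L to SAMD9 was 0.082, 0.043 and 0.045 in shCTL and -1.08, -0.94 and -1.40 in shPBRM1, a difference of -1.19 (SE 0.14). The log2 ratio of IFI27 to IFI6 was -3.28, -3.40 and -3.39 in shCTL and -5.59, -5.67 and -6.26 in shPBRM1, a difference of -2.48 (SE 0.21). These ratios use a prior count of 2, scaled to library size, which pulls ratios of low counts toward 0. With a prior count of 0.5 the differences were -3.40 for IFI44L to IFI44, -1.22 for SAMD9L to SAMD9 and -2.83 for IFI27 to IFI6. The groups did not overlap in any of the 3 pairs. How often the ratios of other pairs of genes separate the groups was not tested. Per library, IFI44L gave more counts than IFI44 in shCTL and fewer in shPBRM1, but per kb of exon it was the lower of the pair in both groups (44.8 against 102 CPM per kb in shCTL, 0.0412 against 0.917 in shPBRM1). By exact two-sided permutation test each pair gave p = 0.1, and 0.1 adjusted over the 3 pairs, which is the smallest value that 3 against 3 libraries allow. The genes of these pairs shared no stretch of 50 bases with each other or with any other gene in their exons, so reads of that length could not be split between them. IFI35 was the only member with shared stretches, in 0.577% of its exon positions.

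**Figure D3:**
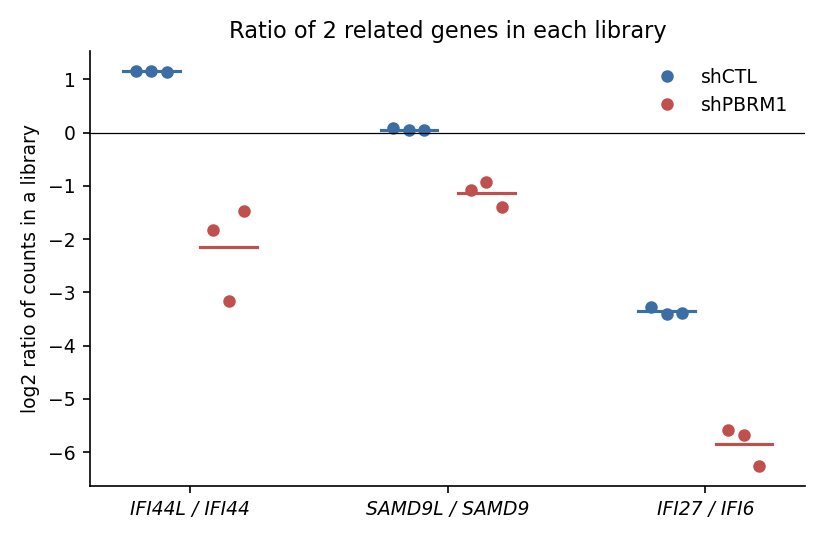
Log2 ratio of the CPM of 2 related genes in each library, for IFI44L to IFI44, SAMD9L to SAMD9 and IFI27 to IFI6, with 1 point per library (3 shCTL, 3 shPBRM1) and the group means. The ratios are not divided by length, so their sign is no order of abundance; in each pair the shPBRM1 points lie below the shCTL points.

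A list of 14 further genes held 11 relatives or partners of the 10 genes and 3 genes that share only the IFI symbol. Of the relatives and partners, 7 passed the filter. Of these, 3 were called lower and 0 higher by edgeR, beside 9.68% and 2.87% of all tested genes. NMI, the partner of IFI35, fell from 51.1 ± 1.51 to 16.5 ± 1.23 CPM (-1.62, adjusted p = 6.65e-17). The galectins LGALS9 (-2.19) and LGALS8 (-1.47) were called lower, whereas LGALS3, the galectin that LGALS3BP is named for, went from 121 to 81.4 CPM (-0.57) and LGALS1 from 445 to 675 CPM (0.60), both under a fold change of 2. The relatives of IFI27 did not reach that fold either, with -0.41 for IFI27L1 and -0.70 for IFI27L2. Without a minimum fold change, 6 of the 7 were lower and 1 higher, beside 33.2% and 31.5% of all tested genes. Of the genes that share only the symbol, 2 passed the filter and both were called lower, the RNA sensor IFIH1 (log2 fold change -5.24, SE 0.24, adjusted p = 1.26e-23, edgeR) and the DNA sensor IFI16 (-2.32, adjusted p = 1.74e-23).

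Upstream of these genes, the 4 transcription factors of the pathway that are reported were called lower and no receptor chain was. Of 21 IFN signaling genes, 14 passed the filter. Of these, 5 were called lower and 0 higher by edgeR, beside 9.68% and 2.87% of all tested genes. The factors accounted for 4 of the 5, and the log2 fold changes were -2.36 for STAT2, -3.19 for IRF7, -1.88 for IRF9 and -1.60 for IRF1. IFNB1, the only ligand called, had 26, 54 and 54 counts in shCTL and 2, 4 and 0 in shPBRM1 (-4.60, SE 0.57, adjusted p = 1.32e-07). Its value was -5.70 without shPBRM1 replicate 2 and -3.92 without shPBRM1 replicate 3, and it was not tested when the mean had to reach 50 counts. IFNE, at under 1 CPM in every library, did not pass the test (-0.27, adjusted p = 0.550). IFNL1 had 10, 20 and 5 counts in shCTL and 0 in each shPBRM1 library, at least 4.47-fold lower against a floor of 3 counts per library, and was not tested because it missed the filter. It was called lower where it was tested, with DESeq2 (adjusted p = 6.71e-05), with edgeR and no filter (2.14e-06) and with edgeR without shCTL replicate 3 or any 1 of the shPBRM1 libraries (8.86e-05 to 1.44e-03). The kinases JAK1 (-0.29), JAK2 (-0.55) and TYK2 (-0.21) were below a fold change of 2. The receptor chains IFNAR1 (0.43), IFNAR2 (0.69), IFNGR2 (0.38) and IL10RB (0.51) were higher by less than 2-fold (adjusted p = 3.41e-09, 1.76e-04, 1.24e-05 and 0.028, edgeR). IFNGR1 did not pass the test (-0.02, adjusted p = 0.532, edgeR). By adjusted p alone, with no minimum fold, 31.5% of all tested genes were higher and 33.2% lower. For comparison, 24 of 24 other well-known ISGs, among them the IFIT, OAS and MX genes and IFIH1 again, were called lower, with a median log2 fold change of -5.91, which was the same with the 1 gene at 0 counts in every shPBRM1 library set at its bound.

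**Figure D4:**
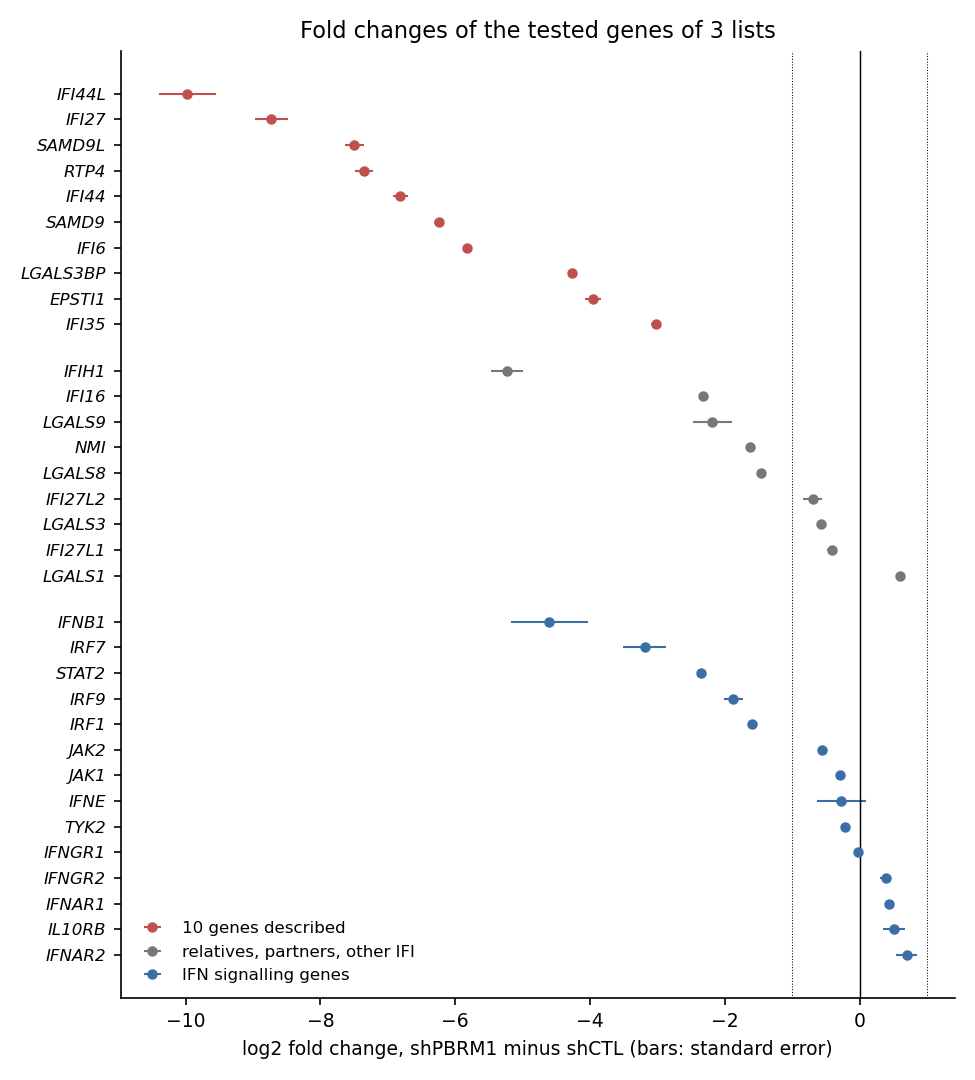
Log2 fold change (shPBRM1 minus shCTL, x axis) of the 10 genes in red, the 9 tested relatives, partners and other IFI symbols in grey and the 14 tested IFN signaling genes in blue, each list in order of size, with error bars of 1 SE from the spread between libraries and dotted lines at a fold change of 2. The 10 genes run from -9.98 for IFI44L to -3.02 for IFI35, and the signaling genes from -4.60 for IFNB1 to 0.69 for IFNAR2.

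The nearest tested genes on either side of the 10 ISGs were examined in the same fit. The nearest tested protein-coding gene on each side was taken, which gave 16 distinct neighbors, IFI27L1 and IFI27L2 among them, at distances of 0.151 to 2642 kb. Of these, 1 was called lower and 0 higher by edgeR, beside 9.68% and 2.87% of all tested genes. Their median log2 fold change was -0.12, with a range of -1.56 to 0.95. The gene called was FAM216B, at 52, 45 and 34 counts in shCTL and 21, 12 and 21 in shPBRM1 (-1.56, adjusted p = 3.00e-04), 94.8 kb from EPSTI1. SAMD9 and SAMD9L, 12.1 kb apart, lie between the cell cycle kinase CDK6 (0.92), 263 kb from SAMD9, and VPS50 (-0.25), 84.0 kb from SAMD9L. IFI44L and IFI44, 3.64 kb apart, lie between PTGFR (-0.78), 79.7 kb from IFI44L, and ADGRL2 (0.95), 2642 kb from IFI44 with an untested gene between them. IFI35 lies 0.151 kb from VAT1, which was at 228 ± 5.51 CPM in shCTL and 230 ± 7.17 in shPBRM1 (0.01, adjusted p = 0.823). Without a minimum fold change, 8 neighbors were lower and 6 higher, beside 33.2% and 31.5% of all tested genes. FAM216B was no longer among the calls when genes under a mean of 50 counts were left out or when edgeR tested directly against a fold of 2.

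**Figure D5:**
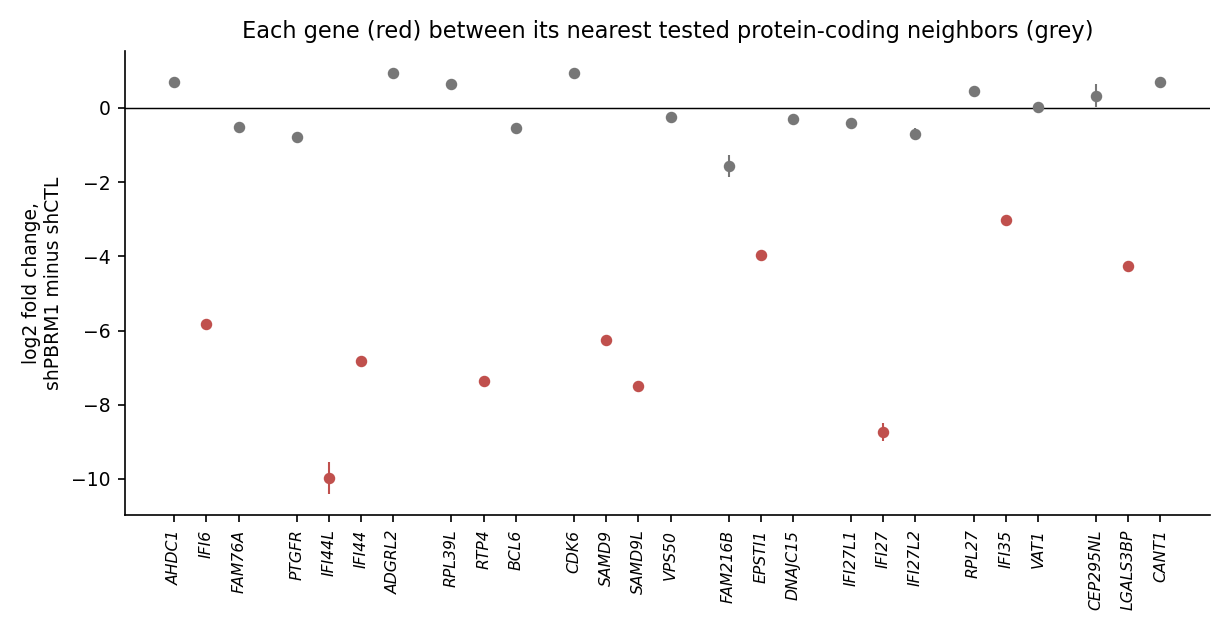
Log2 fold change (shPBRM1 minus shCTL) of each of the 10 genes and of the nearest tested protein-coding gene on either side, by locus. The 10 ISGs lie between -9.98 and -3.02, and their neighbors between -1.56 and 0.95.

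The 10 genes lie on chromosomes 1, 3, 7, 13, 14 and 17 (GENCODE positions on GRCh38). IFI6 spans chr1:27666061-27672218 on the minus strand, IFI44L chr1:78619922-78646145 and IFI44 chr1:78649796-78664078 on the plus strand. RTP4 spans chr3:187368332-187372076 on the plus strand. SAMD9 spans chr7:93099513-93118023 and SAMD9L chr7:93130055-93148369, both on the minus strand. EPSTI1 spans chr13:42886388-42992271 on the minus strand, IFI27 chr14:94104836-94116698 on the plus strand, IFI35 chr17:43006725-43014456 on the plus strand and LGALS3BP chr17:78971238-78980109 on the minus strand. IFI6 and EPSTI1 each overlap a gene on the opposite strand, AL445490.1 and ZDHHC4P1, with 0 shared exon bases.

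Outside the set, the genes whose profile over the 6 libraries was closest to the median profile of the 10 were sought by Euclidean distance on log2 CPM centered on the shCTL mean. KLHDC7B, a kelch-domain gene, was closest (distance 0.164), at 170, 176 and 163 CPM in shCTL and 1.998, 2.16 and 2.16 in shPBRM1. It was followed by IFIT1 (0.398), which binds foreign RNA, TRIM38 (0.405), the chemokine CXCL10 (0.433) and the chemokine receptor CCR1 (0.514). CCR1 was at 0 counts in every shPBRM1 library and at least 44.2-fold lower against a floor of 3 counts per library. Its fitted log2 fold change was -9.998, beside a median of -6.53 for the 10. The distance uses a prior count of 2, which bounds how low a gene at 0 counts can lie, so the place of CCR1 depends on that prior. The measure ranks likeness over these 6 libraries only.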

How the data were processed

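RNA was measured in 6 libraries of BT-549 cells (3 shCTL, 3 shPBRM1). The submitters' processing notes name CASAVA 1.8.2, STAR 2.7.9a, featureCounts, DESeq2 1.24.0 and the build GRCh38.p7. The annotation and strand setting are not given in the sources used here. The deposited values are raw counts per gene symbol, made by the authors from poly(A)-selected, stranded libraries and not normalized. Control columns were matched to samples by replicate number, since their names lack the shPBRM1 tag. Dates stood in place of 14 symbols, which held at most 0.0594% of a library's counts.

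Counts were scaled by TMM, filtered with filterByExpr and tested with edgeR 4.0.16 (quasi-likelihood, Benjamini-Hochberg over 15450 genes) in R 4.3.3. Genes were called at a more than 2-fold difference with adjusted p under 0.05. Standard errors are from the spread of log2 CPM (prior count 2). The scripts were tested on simulated data. DESeq2 1.42.0, other scalings, filters and fold rules, the replicate block and leaving out each library were alternatives. Same-numbered libraries of the groups deviated together (r = 0.734, 0.593 and 0.419 over 5621 genes). However, shCTL 2 and shPBRM1 3 also correlated (r = 0.465), above the third same-numbered pair. Deviations were taken from group means of 3 libraries, so these correlations are not independent. The check therefore cannot settle whether the numbers pair the samples, and the block was run only as an alternative. No pair of libraries within a group agreed within sampling noise (chi-square per degree of freedom 4.92 to 24.9).

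The named genes were the 10 members, PBRM1, fixed lists of IFN signaling genes, relatives, other IFI symbols and cell type markers, the nearest tested neighbors, and the 5 genes with the most similar profile; comparison ISGs were used as counts and a median. The members and lists were chosen with earlier results of these data known. An alignment of the paralog proteins was planned and not run. A listed IFN signaling gene is not reported here.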

Additional observations from a re-analysis of the deposited data

How the results depend on the processing

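The 10 members were called lower, and 0 higher, under each alternative run: DESeq2, other scalings and filters, the replicate block, glmTreat, no minimum fold change and leaving out each library. All 120 alternative log2 fold changes of the members kept their direction and call, with a largest adjusted p of 1.22e-12 (edgeR or DESeq2). Leaving out a library moved the median of the members between -6.58 and -6.45, and the pair differences between -3.65 and -2.80 for IFI44L to IFI44, -1.29 and -1.06 for SAMD9L to SAMD9, and -2.61 and -2.27 for IFI27 to IFI6. With the replicate block, IFI44L stayed at -9.98 and the members lower at 10, no call of a result given here changed, and the smallest exact p for a pair was 0.25. With no minimum fold change, IFN signaling genes lower became 8 (from 5) and higher 4, relatives and other IFI symbols lower became 8 and higher 1, neighbors lower 8 and neighbors higher 6. Neighbors lower became 0 when the mean had to reach 50 counts and 0 with glmTreat against a fold of 2, and these neighbor alternatives were chosen after seeing the data. IFN signaling genes lower numbered 6 with DESeq2, no filter and 4 of the leave-one-out fits, where IFNL1 was tested, and 4 with a mean of 50 counts, where IFNB1 was not. Promoters with the longer ISRE numbered 5. Over all genes, 1496 were lower and 443 higher, against 913 and 175 with glmTreat, 5137 and 4863 with no minimum fold change, and 941 and 270 when the mean had to reach 50 counts. Fewer than 10 counts in some shPBRM1 libraries limit the folds of IFI44L, IFI27 and RTP4. With 3 libraries in each group, single outlying libraries were not tested for.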
